A study of Rattus norvegicus with 6 samples.

Results

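The deposited table was searched for long non-coding RNAs (lncRNAs) assigned to 4 genes that encode developmental transcription factors of the kidney, Tcf21, Irx2, Emx2 and Grhl2. Every transcript with one of these names, or with the locus identifier of Tcf21, Irx2 or Emx2, was kept. This gave 7 of 2455 transcripts and 4 of 1646 loci. Earlier results of these data were known, so the members were chosen by their FPKM in these samples, above all the levels in cortex and outer medulla. Those levels are therefore a description, and calls of the fit over the whole table are given without support being drawn from them. RNA came from cortex, outer medulla (a kidney region), left ventricle of the heart, adrenal gland, hypothalamus and liver of male BN (Brown Norway, an inbred strain) rats aged 6 weeks, with no treatment named and 1 sample per tissue. For cortex the organ is not named in the label. Each tissue had 2 columns of values, and nothing in the labels says that they came from separate animals, so their spread may be technical. The hypothalamus columns carried a code that fits no label by its letters and were matched by elimination.

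TCF21 is a basic helix-loop-helix factor of mesenchyme, stroma and podocytes, the filtering cells of the glomerulus, which lies in the kidney cortex. IRX2 belongs to the Iroquois homeobox family, whose members pattern body regions and, in frog and mouse, segments of the nephron. EMX2 is a homeobox factor without which mouse embryos form no kidneys. GRHL2 is a grainyhead factor of epithelia that acts on genes for cell junctions, in the kidney mainly in the distal nephron and collecting duct. Genes of this kind often have non-coding transcripts on the opposite strand or next to their promoter. The table held only lncRNAs, so the mRNAs of these factors were not measured here.

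The promoters of the coding genes are shown because the lncRNAs lie at these genes and because the neighbourhoods of a cortex transcript (Tcf21) and of a transcript present in both regions (Irx2) can be set side by side. RefSeq promoters (250 bases before to 50 after the gene start, build GRCr8) were found for 2 of the 4 genes, and those of Emx2 and Grhl2 are named only. The Tcf21 window is chr1:24520249-24520548 on the plus strand and the Irx2 window chr1:32494881-32495180 on the minus strand. Both are written 5′ to 3′, with CG dinucleotides in capitals.
Tcf21: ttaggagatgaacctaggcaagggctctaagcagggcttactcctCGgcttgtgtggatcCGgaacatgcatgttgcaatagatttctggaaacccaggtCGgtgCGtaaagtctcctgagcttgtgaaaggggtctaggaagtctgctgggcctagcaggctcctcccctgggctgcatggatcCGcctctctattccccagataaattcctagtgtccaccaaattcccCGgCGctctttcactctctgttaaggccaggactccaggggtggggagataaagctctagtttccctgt
Irx2: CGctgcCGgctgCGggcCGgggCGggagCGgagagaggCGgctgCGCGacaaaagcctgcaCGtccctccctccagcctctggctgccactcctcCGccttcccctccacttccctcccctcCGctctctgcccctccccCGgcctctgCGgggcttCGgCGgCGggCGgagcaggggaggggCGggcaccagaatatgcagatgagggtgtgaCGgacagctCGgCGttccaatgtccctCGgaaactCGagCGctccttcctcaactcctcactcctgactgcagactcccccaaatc
The Tcf21 window held 7 CG dinucleotides and was 53.7% G or C. The Irx2 window held 25 and was 69.3% G or C. Over 33469 promoters of the same length the median was 7 CG dinucleotides, with quartiles of 3 and 19. A GC box (GGGCGG, both strands) had 3 matches in the Irx2 window and 0 in the Tcf21 window, and 33.1% of all promoters held at least 1. An E-box (CANNTG, the letters that basic helix-loop-helix factors bind) had 1 match at Irx2 and 0 at Tcf21, against 72.1% of all promoters with at least 1. The homeodomain core TAAT (60.6% of promoters), the TATA box TATAAA (14.2%) and the grainyhead site AACCGGTT (0.173%), each searched on both strands, had no match in either window. None of these letters was tested for binding.

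The 7 transcripts differed in how they lie relative to the coding gene. By the class codes of the table, 4 were antisense to an exon (code x): TCONS_00007426 and TCONS_00007428 at Tcf21, TCONS_00013941 at Emx2 and TCONS_00098119 at Grhl2. Of all 2455 transcripts, 189 (7.70%) had this code. TCONS_00007547 shared a splice junction with Irx2 (code j). TCONS_00013938 and TCONS_00013940 had no reference gene and belonged to the Emx2 locus through their shared identifier. The sources used here do not give the strand setting of the counting, and without strand a transcript that overlaps a coding gene can take up fragments of its mRNA. For TCONS_00007547, which shares a splice junction with Irx2, a strand setting would not keep such fragments apart. Its values may therefore include fragments of Irx2 mRNA, which was not tested.

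The members ranged from 1441 to 8141 bases, with a median of 3788 bases against 1758 bases for all transcripts. On build rn5 the Tcf21 locus is chr1:25361075-25375364, the Irx2 locus chr1:34682430-34688217, the Emx2 locus chr1:287963207-288000656 and the Grhl2 locus chr7:76186766-76317834. Both Tcf21 transcripts carried the same start-site identifier, whereas the 3 transcripts of the Emx2 locus carried 3 different ones. In RefSeq's list for GRCr8 an antisense RNA gene, Emx2os, lies close to Emx2. Coordinates were not converted between builds, so XLOC_008376 was not matched to it.

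Values are deposited FPKM, which divides fragments by the length of the transcript and the depth of the library. The steps between low values implied 17260000 and 14870000 fragments in cortex, 17460000 and 18390000 in outer medulla, and a range from 3870000 in liver column 2 to 31860000 in hypothalamus column 2. The lncRNA that overlaps Slc12a1, the salt transporter of the thick ascending limb, was used as a check of the labels. It had 12.2 and 14.7 FPKM in cortex against 36.5 and 36.6 in outer medulla. Its difference, cortex minus outer medulla on the log2(FPKM + 0.1) scale, was -1.44 (SE 1.19). This was not called by limma (adjusted p = 0.432). The Slc12a1 transcript was listed at 0 in both hypothalamus columns and liver column 1. However, it had 0.2499 and 0.491 FPKM in left ventricle and 1.32 in liver column 2. The transcript at the adrenal marker Cyp11b3 had 60.5 and 44.4 FPKM in adrenal gland, but also 5.89 and 1.21 in hypothalamus. Of 60 marker genes of the tissues and nephron segments 7 had a transcript in the table. Those of liver pointed both ways: the Slc27a5 transcript had 8.41 and 4.97 FPKM in liver, while that of Fga was listed at 0 there. No marker of the proximal tubule, distal tubule, collecting duct, heart or hypothalamus was among them, and the single podocyte transcript, antisense to Wt1, was listed at 0 in all 4 cortex and outer medulla columns. The cell type behind a level could therefore not be read from markers. In bulk tissue, fewer cells of a type and less RNA per cell cannot be told apart.

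All 4 loci had their highest level in cortex or outer medulla (plot of locus levels by tissue). A locus level is the sum of FPKM over its listed transcripts. In each locus the 4 columns of cortex and outer medulla stood above all 8 columns of the other tissues. Of 534 loci with a mean of 1 FPKM or more in cortex or outer medulla, 180 (33.7%) did so, and nothing is read from the members' count because they were chosen with such levels in view. The lowest of the 4 columns was 7.65 times the highest other column at Emx2, 2.60 times at Irx2, 2.18 times at Grhl2 and 1.04 times at Tcf21. The mean levels were 0.892 to 1.24 FPKM in cortex and 0.127 to 3.20 FPKM in outer medulla, against medians of 1.58 and 1.46 FPKM over the 534 loci. In cortex all 4 were below the median, and in outer medulla Tcf21 was.

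**Figure D1:**
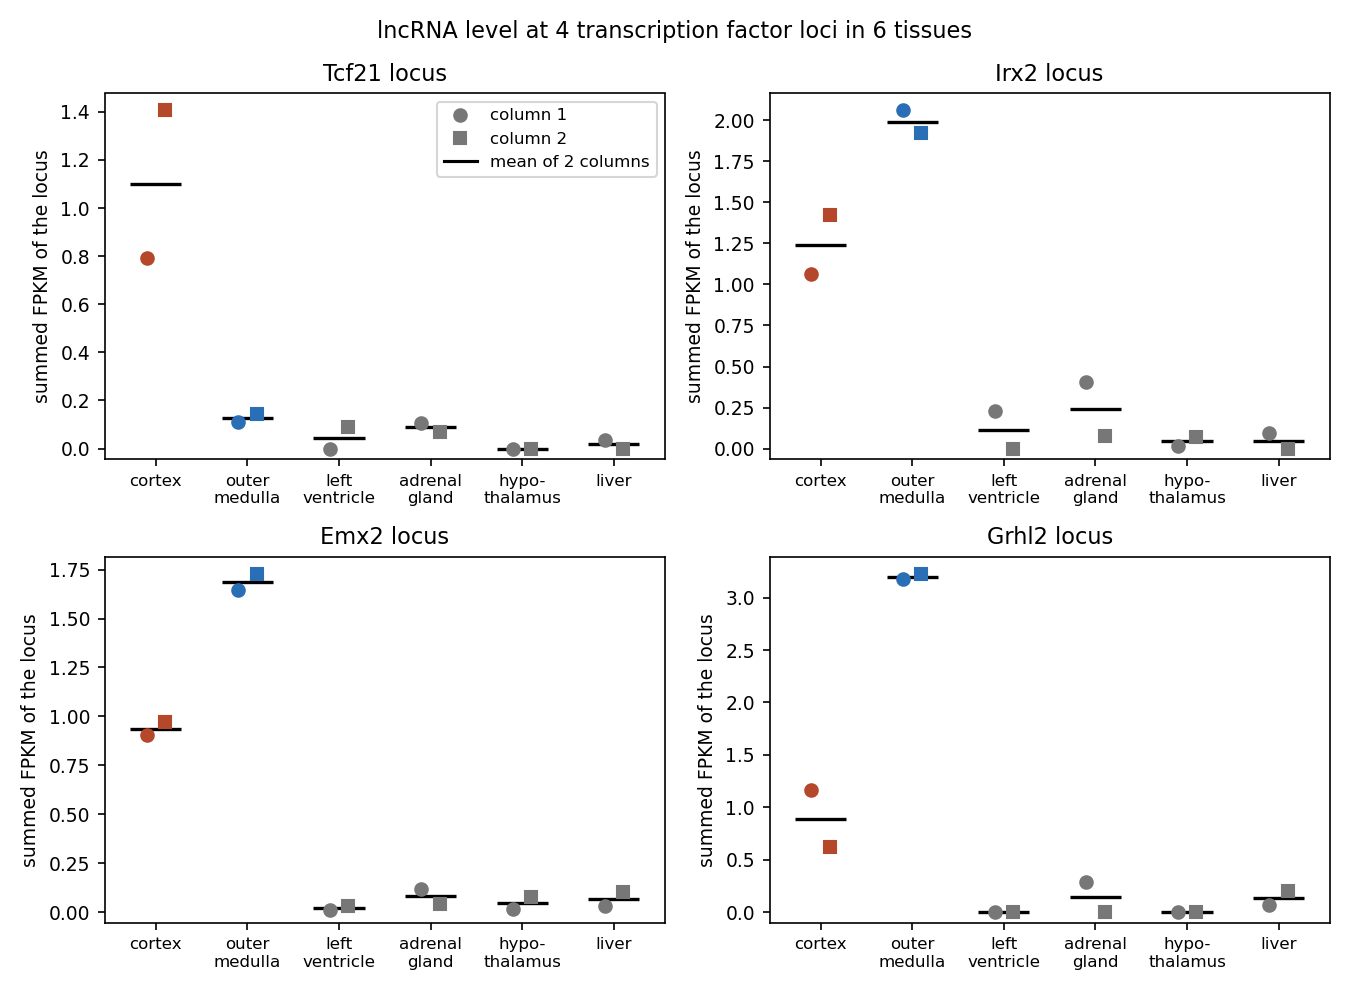
Summed FPKM of each locus (y axis, linear) in the 6 tissues (x axis), with column 1 as circles, column 2 as squares and their mean as a line. The Tcf21 locus is highest in cortex (0.792 and 1.41) and the other 3 loci are highest in outer medulla, while no other tissue exceeds 0.408 in any column.

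The Tcf21 locus was the only one of the 4 with more RNA in cortex than in outer medulla. It had 0.792 and 1.41 FPKM in cortex against 0.109 and 0.146 FPKM in outer medulla, so the columns did not overlap and the ratio of means was 8.63. Estimated fragments divided by depth alone, computed after the values were seen, gave a ratio of 3.73, because FPKM also divides by lengths that differ between the 2 transcripts of the locus. About 19 and 34 fragments lay behind the cortex values, against about 7 and 10 in outer medulla, with 95% exact Poisson intervals of 11.4 to 29.7 and 23.5 to 47.5 fragments in cortex and 2.81 to 14.4 and 4.80 to 18.4 in outer medulla. These intervals cover counting error only. The mean was 1.10 ± 0.434 FPKM in cortex and 0.127 ± 0.0260 FPKM in outer medulla (SD, n = 2 columns each).

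Outside the kidney regions the Tcf21 locus was close to its outer medulla level in adrenal gland in FPKM only, with 0.105 and 0.0705. FPKM divides by length, and the adrenal value lay in the transcript of 1552 bases alone. That of outer medulla lay almost wholly in the transcript of 3788 bases. In fragments, about 2 in each adrenal column stood against about 7 and 10 in outer medulla. The implied depths were 13520000 and 17600000 fragments in adrenal gland against 17460000 and 18390000 in outer medulla. Left ventricle had 0 and 0.0903 FPKM, liver had 0.0374 and 0, and hypothalamus was at 0 in column 1 and close to 0 in column 2. These tissues gave at most about 3 fragments per column, so their order could not be told at this depth. The adrenal values rest on about 2 fragments per column, with intervals of 0.242 to 7.22 fragments that overlap those of outer medulla.

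Within the Tcf21 locus, the transcript that made up the sum was not the same in the 2 regions. TCONS_00007426, of 1552 bases, had 0.789 and 1.26 FPKM in cortex against 0.00263 and 0.000196 FPKM in outer medulla. TCONS_00007428, of 3788 bases, had 0.00320 and 0.149 FPKM in cortex against 0.106 and 0.145 FPKM in outer medulla. The shorter one thus held 99.6 and 89.4% of the locus FPKM in cortex and 2.41 and 0.135% in outer medulla. By FPKM times length its share in cortex was 99.0 and 77.5%. The higher level in cortex lay in the shorter antisense transcript, while cortex column 2 and both outer medulla columns of the longer one were alike. The outer medulla shares rest on about 7 and 10 fragments, divided between overlapping transcripts by the authors' estimation.

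The Irx2 transcript, TCONS_00007547, was present in both regions. It had 1.06 and 1.42 FPKM in cortex against 2.06 and 1.92 FPKM in outer medulla, from about 31 and 36 fragments against 62 and 61. The columns did not overlap, and outer medulla was 1.602 times cortex on the means. This gap is the smallest of the 4 loci on the log2 scale. The mean was 1.24 ± 0.257 FPKM in cortex and 1.99 ± 0.0987 FPKM in outer medulla (SD, n = 2 columns each). On the means, the next tissue was adrenal gland, with 0.408 and 0.0789 FPKM, followed by left ventricle with 0.228 and 0. Hypothalamus had 0.0181 and 0.0690 FPKM and liver had 0.0965 and 0. Both adrenal columns lay above both hypothalamus columns in FPKM, and the other pairs of these 4 tissues overlapped. These values rest on about 9 and 2 fragments in adrenal gland and 1 and 4 in hypothalamus. The order of the 4 tissues could therefore not be told at this depth.

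In adrenal gland column 1 was listed higher than column 2 at all 4 loci: at Tcf21 and Irx2, as given above, at Emx2 (0.118 and 0.0415 FPKM) and at Grhl2 (0.285 and 0). In fragments these were about 2 and 2 at Tcf21, 9 and 2 at Irx2, 11 and 5 at Emx2, and 5 and 0 at Grhl2. The share of all loci with this order is not given, so nothing is read from the count. The transcript at Cyp11b3, an adrenal marker, was also higher in column 1 (60.5 and 44.4 FPKM). The Slc12a1 transcript, a marker of the thick ascending limb, had 1.501 FPKM in adrenal column 1 and 0.146 in column 2. This transcript was not limited to adrenal column 1, with 1.32 FPKM in liver column 2 and 0.491 in left ventricle column 2. Its part in the adrenal values was not tested.

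The Emx2 locus was present in both regions, with columns that lay close together in each. It had 0.905 and 0.970 FPKM in cortex against 1.65 and 1.73 FPKM in outer medulla, from about 102 and 105 fragments against 192 and 224. The 2 regions did not overlap, and outer medulla was 1.80 times cortex. The mean was 0.938 ± 0.0458 FPKM in cortex and 1.69 ± 0.0570 FPKM in outer medulla (SD, n = 2 columns each). The highest value in any other tissue was 0.118 FPKM, in adrenal column 1. Hypothalamus had 0.0175 and 0.0754 FPKM, left ventricle 0.0103 and 0.0312, and liver 0.0311 and 0.103.

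The division of the Emx2 locus among its transcripts was far less even than its sum. TCONS_00013938, of 6891 bases, had 0.405 and 0.0614 FPKM in cortex against 1.28 and 1.32 FPKM in outer medulla. TCONS_00013940, of 6539 bases, had 0.4996 and 0.389 FPKM in cortex against 0.369 and 0.00208 FPKM in outer medulla. TCONS_00013941, of 8141 bases and the transcript antisense to an Emx2 exon, had 0.000285 and 0.51999 FPKM in cortex against 0.00346 and 0.406 FPKM in outer medulla. The last was thus near 0 in column 1 of both regions and present in column 2 of both, so no difference between the regions can be read for it. For this transcript the larger column was 1823 times the smaller in cortex and 117 times in outer medulla, against 1.07 and 1.05 times for the locus sum. TCONS_00013938 held 44.8 and 6.33% of the locus FPKM in cortex, against 77.4 and 76.4% in outer medulla. The share of this transcript in outer medulla was the steady value here, and its share in cortex was not.

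**Figure D2:**
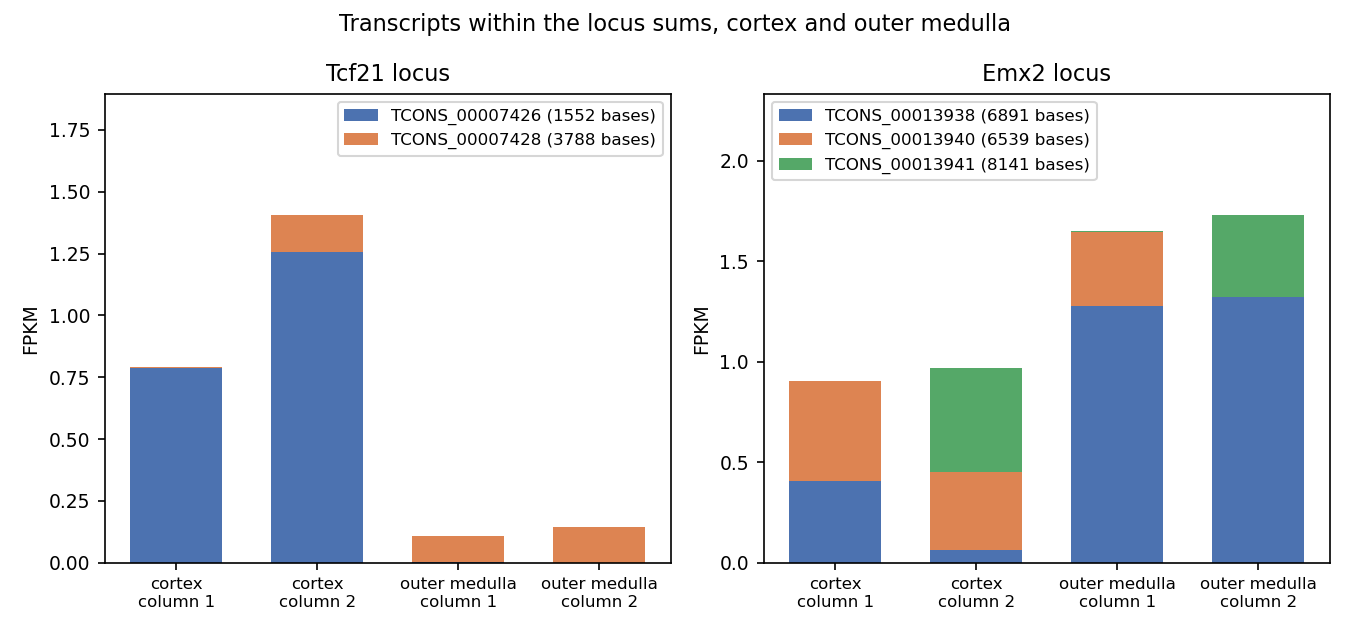
FPKM (y axis, linear) of each transcript, stacked to the locus sum, in each cortex and outer medulla column at the Tcf21 and Emx2 loci. The Tcf21 sum is made mostly of the 1552-base transcript in cortex and of the 3788-base transcript in outer medulla, while the Emx2 sums are even between columns (0.905 and 0.970, 1.65 and 1.73) and their parts are not.

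The Grhl2 transcript, TCONS_00098119, had the highest level of the 7 in outer medulla. It had 1.16 and 0.621 FPKM in cortex against 3.17 and 3.23 FPKM in outer medulla, which was 3.59 times cortex on the means. About 26 and 12 fragments lay behind the cortex values, against 72 and 77 in outer medulla, with 95% exact Poisson intervals of 17.0 to 38.1 and 6.20 to 21.0 fragments in cortex. The outer medulla columns agreed closely and the cortex columns did not, but the regions did not overlap. The mean was 0.892 ± 0.384 FPKM in cortex and 3.20 ± 0.0363 FPKM in outer medulla (SD, n = 2 columns each). It was listed at 0 in both left ventricle and both hypothalamus columns and in adrenal column 2. Adrenal column 1 had 0.285 FPKM, equal to 5.01 fragments, and liver had 0.0635 and 0.198 FPKM, each equal to 1 fragment. With 3 fragments as the limit of a count of 0, hypothalamus could hold up to 0.0837 and 0.0724 FPKM of this transcript, and left ventricle up to 0.225 and 0.228 FPKM.

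In cortex and outer medulla, the Grhl2 values lay nearer to whole fragments, within 0.186, than those of Irx2, which were 0.295 to 0.466 away. Multiplied out with the implied depth, the Grhl2 transcript gave 26.1 and 12.01 fragments in cortex, against 72.1 and 77.2 in outer medulla. Cortex had 31.4 and 36.3 fragments of the Irx2 transcript by the same calculation, and outer medulla had 61.7 and 60.5. At these counts a small error in the implied depth or the assumed fragment length moves a value by part of a fragment. The antisense TCONS_00007426 was also 0.226 and 0.383 away from whole fragments in cortex. Nothing is read from these distances.

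The fit over the whole table gave a size and an error for each difference. limma on log2(FPKM + 0.1) pooled the spread between columns over the 6 tissues, and differences are cortex minus outer medulla on that scale, which shrinks changes of low loci. They were 2.36 (SE 0.382) at Tcf21, -0.651 (SE 0.678) at Irx2, -0.785 (SE 0.362) at Emx2 and -1.79 (SE 0.611) at Grhl2. The difference at Irx2 was smaller than its error. The SE reflects columns of other tissues too, such as the unequal adrenal columns at Irx2 and Grhl2. At a Benjamini-Hochberg adjusted p below 0.05 limma called 1 of the 4 loci, Tcf21, against 24.2% of all 534 loci in either direction and 15.4% higher in cortex. The cortex and outer medulla columns did not overlap at any of the 4 loci, and 76% of all loci shared this. Because the genes were chosen with this contrast in view, nothing follows from these counts. The median difference was -0.718 over the 4 loci and 0.0589 over all 534.

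The place of each locus among all 534 shows how common such differences were. At 47 loci the difference in favour of cortex was larger than at Tcf21, and at 44 loci the difference in favour of outer medulla was larger than at Grhl2. At 110 loci it was further towards outer medulla than at Emx2, and at 124 than at Irx2.

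**Figure D3:**
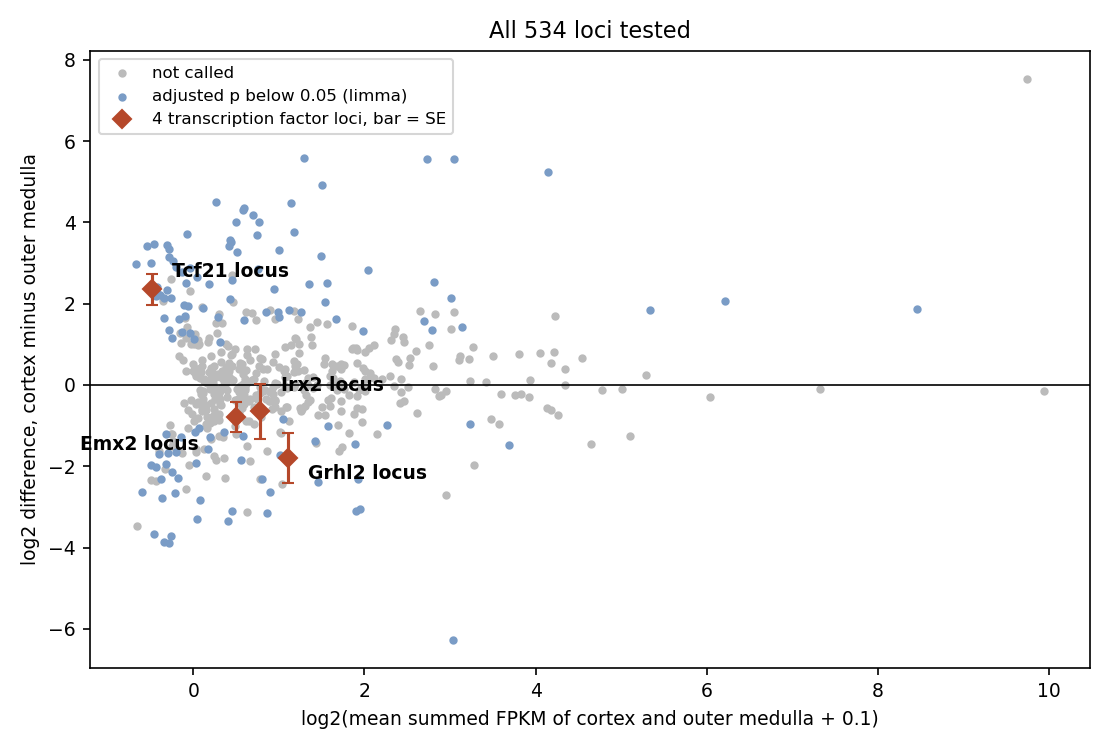
Log2 difference in summed FPKM between cortex and outer medulla (y axis) against the mean level of both on a log2 scale (x axis) for the 534 loci tested, with the 4 transcription factor loci as diamonds with SE bars. Tcf21 stands at 2.36 and the other 3 between -1.79 and -0.651.

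Per transcript, 4 of the 7 reached a mean of 1 FPKM in cortex or outer medulla, namely TCONS_00007426, TCONS_00007547, TCONS_00013938 and TCONS_00098119. TCONS_00007426 passed through its cortex level, TCONS_00013938 and TCONS_00098119 through outer medulla, so a difference was built into their selection. Over the whole table limma called 20.7% of 604 transcripts at an adjusted p below 0.05, and 2 of these 4 were among them, from which nothing is read. These were TCONS_00007426, with a difference of 3.44 (SE 0.254), and TCONS_00013938, with -2.29 (SE 0.601). The call of TCONS_00013938 was lost without cortex column 2 (-1.47), without outer medulla column 1 (-2.31) or column 2 (-2.27), and without either hypothalamus column (-2.29). The sum over its 3 transcripts gave -0.785 for the Emx2 locus, with no call. Without cortex column 2, TCONS_00007426 and the Tcf21 locus fell under the minimum of 1 FPKM and were not tested. The pseudocount set the size at Tcf21: the locus difference was 2.97 with 0.01, where its call was lost, and 0.881 with 1. For TCONS_00007426, with less than 1 fragment in each outer medulla column, it was 6.47 with 0.01 and 1.005 with 1.

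**Figure D4:**
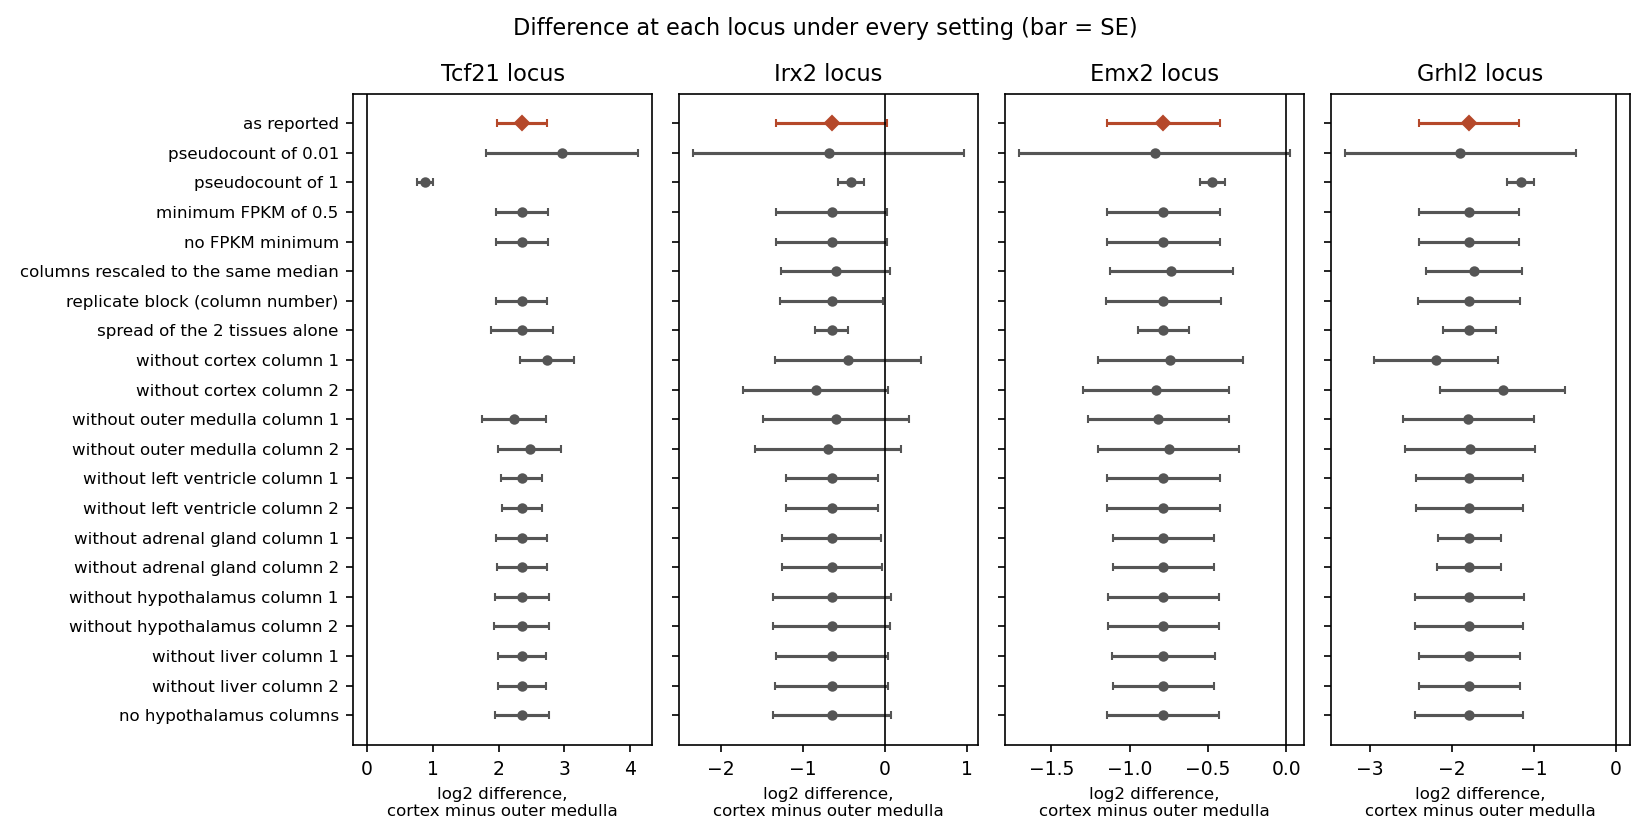
Log2 difference between cortex and outer medulla with its SE (x axis) for each locus under each setting (y axis), with the reported value as a diamond. The sign is the same in every row (0.881 to 2.97 at Tcf21, -2.19 to -1.17 at Grhl2), and 2 rows are missing at Tcf21 because its mean fell under the minimum.

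Among the 4 tissues outside the kidney regions no locus reached the minimum for a test. Means were below 1 FPKM, and below 0.5, in left ventricle, adrenal gland, hypothalamus or liver. With no minimum, limma ran 23 tests of a locus in a pair of these tissues and called 0, with 0 at an unadjusted p below 0.05, against 36.5% called over all loci in these pairs. The members held at most about 15 fragments in any of these columns, so the tests could hardly call a difference. Nothing is read from this count. Of the 14 member values in each tissue (7 transcripts in 2 columns), 0 were listed at 0 in cortex and 0 in outer medulla, against 9 in left ventricle, 7 in hypothalamus, 7 in liver and 4 in adrenal gland. A value above 0 need not stand for a fragment: TCONS_00007426 came to 0.0647 and 0.00510 fragments in outer medulla. The members were chosen by their levels in cortex and outer medulla, and the share over all transcripts is not given. Nothing is therefore read from these counts of 0. The FPKM that 3 fragments would give ran from 0.0118 to 0.596 over these transcripts and columns, so low levels were not detectable in the shallow liver column 2.

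Other lncRNA loci lie near the 4 genes on rn5, and some shared their tissue pattern. These were looked at after their values were seen, apart from those that the rule on similarity named. XLOC_008374 (chr1:287949285-287961598), a transcript with no reference gene, ends 1609 bases from the Emx2 locus. It had 1.98 and 1.94 FPKM in cortex against 3.30 and 3.36 FPKM in outer medulla, and at most 0.173 FPKM in any other tissue. Outer medulla was 1.70 times cortex, close to the 1.80 times of the Emx2 locus itself. The difference at XLOC_008374 was -0.735 (SE 0.327) and was not called by limma (adjusted p = 0.149), nor was that at the Emx2 locus. XLOC_004528 (chr1:25342663-25343645) lies 17.4 kb from the Tcf21 locus and had 0.843 and 1.73 FPKM in cortex against a value close to 0 and 0.369 FPKM in outer medulla. Its adrenal column 1 had 0.507 FPKM, above both outer medulla columns, and its adrenal column 2 was listed at 0. The difference between cortex and outer medulla at XLOC_004528 was 2.60 (SE 0.942) and was not called by limma (adjusted p = 0.079).

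The other neighbours were mixed: some were highest in another tissue, and some shared part of the pattern. Within 1 Mb of Tcf21 there were 4 more loci. XLOC_000260, at 278 kb from the Tcf21 locus, was listed at 0 in both cortex columns and had 3.74 and 4.11 FPKM in adrenal gland. XLOC_000252 had 1.19 and 1.18 FPKM in cortex against 0.1597 and 0.2297 FPKM in outer medulla, and its highest tissue was liver, with 2.27 and 1.01 FPKM. XLOC_000232 had 0.642 and 0.8596 FPKM in cortex against 0 and 0.301 FPKM in outer medulla. XLOC_000246 was at most 0.207 FPKM in cortex and near 0 in outer medulla, with 1.44 FPKM in liver column 1. The second neighbour of Emx2, XLOC_008364, was highest in hypothalamus, with 0.393 and 0.859 FPKM. Only 1 other listed locus lay within 1 Mb of Irx2. This was XLOC_004610, at 988 kb, with 57.6 and 60.4 FPKM in cortex and 71.4 and 72.4 FPKM in outer medulla, against at most 4.22 FPKM elsewhere. Its level was thus far above that of the Irx2 transcript itself. Within 1 Mb of Grhl2 there were 3 loci, and none had the excess in outer medulla: their ratios of outer medulla to cortex were 1.10, 1.03 and 0.1996.

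Of 65 other transcription factors of kidney development and tubules, 2 had a transcript in the table, both antisense. The Irx3 transcript, TCONS_00051097 at chr19:26917304-26924116, lies at another Iroquois gene. It had 0.938 and 1.09 FPKM in cortex against 0.751 and 0.878 FPKM in outer medulla, and at most 0.197 FPKM elsewhere. The cortex and outer medulla columns did not overlap, but the difference of 0.283 (SE 0.305) was within its error and was not called by limma (adjusted p = 0.56). The Irx3 and Irx2 transcripts thus shared the kidney regions as their highest tissues. Their means were ordered in opposite ways between the regions, but the Irx2 difference (-0.651, SE 0.678) was also within its error. No contrast between the 2 is read from this order. The Wt1 transcript, TCONS_00071430, named for a podocyte factor, had 2.69 and 0.496 FPKM in liver and was listed at 0 in the 10 other columns.

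The loci most like each of the 4 in level were found by Pearson correlation of log2(FPKM + 0.1) over the 12 columns, among 1048 other loci. The columns share 6 tissues and their depths, so these values carry no p. For Tcf21 they were XLOC_006147 (r = 0.958), with 1.03 and 1.18 FPKM in cortex against 0.147 and 0.185 in outer medulla, and XLOC_021037 (r = 0.951). For Irx2 they were XLOC_018470 (r = 0.9696) and XLOC_023289 (r = 0.964). For Emx2 they were XLOC_032526 (r = 0.987) and the neighbour XLOC_008374 (r = 0.983). For Grhl2 they were XLOC_001780 (r = 0.981) and again XLOC_032526 (r = 0.9795). XLOC_032526 had 0.526 and 0.62 FPKM in cortex against 1.53 and 1.51 FPKM in outer medulla, and XLOC_001780 had 3.599 FPKM or more in every column. None of these loci had a reference gene. Among the 4 loci themselves r was 0.895 to 0.962 between Irx2, Emx2 and Grhl2, and 0.547 to 0.673 between Tcf21 and each of them.

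**Figure D5:**
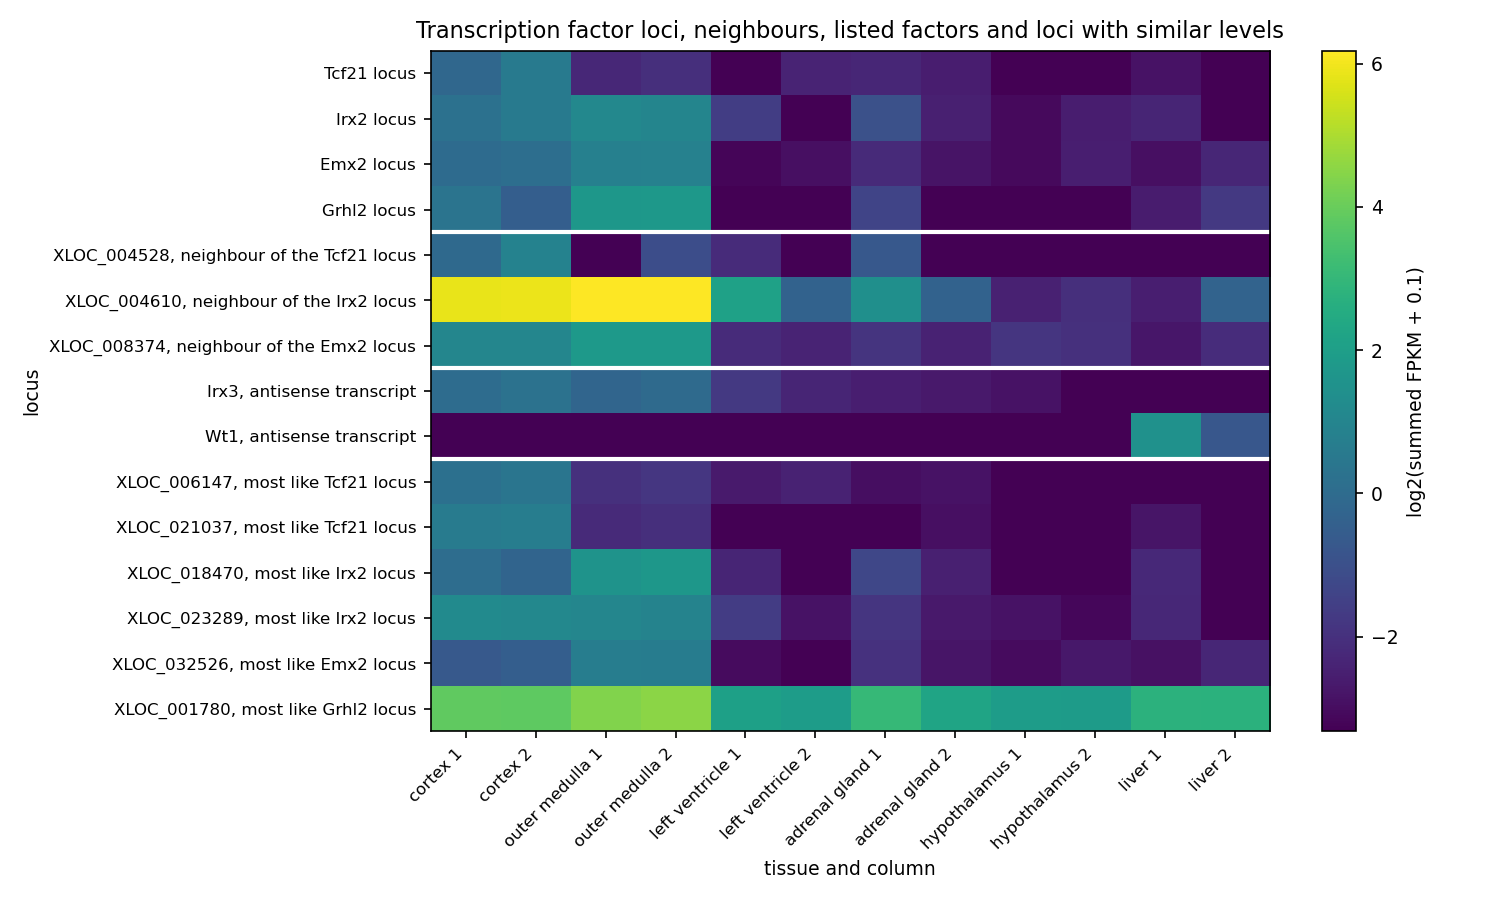
Log2(summed FPKM + 0.1) by colour for the 4 transcription factor loci, neighbouring loci, the 2 listed factors and the most similar loci (y axis) in the 12 columns (x axis). Tcf21 and its most similar loci are brightest in cortex, the Irx2, Emx2 and Grhl2 loci in both regions with outer medulla above cortex, and the Wt1 transcript in liver alone.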

How the data were processed

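Per the labels' protocols, TRIzol served to extract total RNA and the TruSeq Stranded RNA LT kit to prepare libraries. Reads were made with bcl2fastq 2.15.0 and build rn5 was used, per the submitters' processing notes. FPKM of transcripts selected as lncRNAs was deposited by the authors, per the file headers in the layout of a Cufflinks tracking file. The sources used here do not give the aligner, the FPKM program, the strand setting or the lncRNA criteria. Transcript length in bases is another value the authors deposited. The table had 2458 rows, of which 3 without values were left out.

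No counts were used here. Depth was estimated from the steps between low values of loci with 1 transcript of more than 500 bases, assuming 140 bases per fragment. In each column 80.9 to 89.6% of the values used came within 0.15 of a whole fragment count. The depth was chosen to bring these same values close to whole counts, so this share is no check of it. FPKM was summed per locus, and limma with a mean-variance trend was fitted to log2(FPKM + 0.1) of the 12 columns with tissue as the factor. Features with a mean of 1 FPKM or more in either tissue of a pair were tested, with Benjamini-Hochberg adjustment over all of them. The fit was checked on simulated data. The members, lists and tests were chosen with earlier results of these data known. Named features were all members, every listed factor found, and per locus the 2 loci with the highest Pearson correlation. The RefSeq table (GRCr8) matched the 4 gene symbols, but 0 of 5 deposited reference identifiers. Alternatives were other pseudocounts and minimums, rescaled columns, the column number as a block, the spread of 2 tissues alone, each column left out in turn and, chosen after seeing the data, no hypothalamus columns and fragments over depth without division by length. Software was limma 3.58.1 in R 4.3.3, with pandas 2.3.3, SciPy 1.17.1, NumPy 2.4.6 and matplotlib 3.10.9 in Python 3.11.15.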

Additional observations from a re-analysis of the deposited data

How the results depend on the processing

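None of the 4 loci and of the 4 member transcripts tested changed sign between cortex and outer medulla under an alternative that tested it. Of the 4 loci 1 was called as reported, against 0 with a pseudocount of 0.01, 0 with rescaled columns, 3 with a pseudocount of 1 and 3 with the spread of the 2 tissues alone, and 0 to 2 with 1 column left out. Emx2 and Grhl2 were the added calls with a pseudocount of 1 and the spread of the 2 tissues alone, and Grhl2 was also called without either adrenal gland column. Of the transcripts 2 were called, against 1 with a pseudocount of 0.01, 1 with no minimum, 1 with rescaled columns 1 with no hypothalamus columns and 3 with a pseudocount of 1, and 0 to 3 with 1 column left out. With rescaled columns and without cortex column 2, Tcf21 fell under the minimum and was not tested. With the spread of the 2 tissues alone 2 were called, but TCONS_00098119 was in place of TCONS_00013938. Other lost calls were those of TCONS_00013938 and, with a pseudocount of 0.01, of the Tcf21 locus, and their cause was not tested.

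In all, 129 loci and 125 transcripts were called, against 36 and 42 with a pseudocount of 0.01 and 220 and 241 with 1. The spread of the 2 tissues alone called 211 loci, and leaving out 1 column gave 69 to 150 loci and 77 to 143 transcripts. Rescaling shifted all transcripts by a median of 0.138 on the log2 scale towards cortex. The labels do not say whether columns with the same number belong together across tissues. Over the 15 pairs of tissues the differences between columns correlated at -0.0714 to 0.128, which cannot settle this. With the column number as a replicate block 124 loci and 120 transcripts were called, 1 locus and 2 transcripts of them members. Mean shares of transcripts in a locus moved by less than the SD of the 2 columns with FPKM times length, except that of TCONS_00013938 in outer medulla, 75.8% against 76.9%. Single columns could move more: in cortex column 2 the share of TCONS_00007426 was 77.5% against 89.4%. By Spearman correlation 0 of the 2 most similar loci stayed for Tcf21 and 1 of 2 for each other locus.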
